A study of Mus musculus with 13 samples.

Results

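The genes described here are the cytosolic ribosomal protein genes of neonatal mouse dermal fibroblasts, the genes whose products form the large (Rpl) and small (Rps) subunits of the ribosome outside the mitochondria. They were taken by symbol: Rpl or Rps followed by digits and at most 1 letter a, x or l, together with Rplp0, Rplp1, Rplp2 and Rpsa. The rule found 80 genes of the 25655 in the tables, 49 of the large and 31 of the small subunit. RNA had been sequenced from primary cultures of untreated dermal fibroblasts of newborn mice, in 2 sets that each compared wild-type (WT) cultures with cultures homozygous for the G234D allele of Fbn1 (Fbn1 G234D/G234D, written G234D below). Fbn1 encodes fibrillin-1, the main protein of the microfibrils of connective tissue, and the study asked whether fibroblasts with the mutation differ in the genes of the extracellular matrix that they express. Set 1 held 4 WT cultures (W1 to W4) and 4 G234D cultures (M1 to M4), while set 2 added 2 from WT mice (W5, W6) and 3 from G234D mice (M5 to M7), each culture from its own mouse. The labels give no strain, litter, passage or day of culture. The titles of set 1 number the animals, and W1, W2, M1 and M2 carry lower numbers than W3, W4, M3 and M4. These are called the earlier and the later animals; the number of W1 lies apart from the other 3 of its group, and no label says what a number group shares.

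Values are TPM, in which each gene's reads are divided by its length and every library is scaled to the same total of 1000000 transcripts. A TPM is therefore a share of the RNA of a library. A higher level of these genes, a lower level of others, and a change in the cells that make up a culture cannot be told apart in such bulk samples, nor can fewer cells of a type and less RNA per cell. Read totals were not part of the tables, so the depth behind a value is unknown. Genes at 1 TPM or more numbered 11741 to 12042 per library. Fibroblast markers summed to between 23792 and 34909 TPM, endothelial markers to at most 4.10 TPM and erythroid markers to at most 0.175 TPM, with Hba-a1, Hba-a2 and Hbb-bt listed at 0 in all 13 libraries. Fbn1 itself differed between genotypes over both sets by 0.15 on the log2 scale (SE 0.058, limma adjusted p = 0.742), and since the allele changes an amino acid, the mRNA level is no check on the labels. Libraries M1 and M2 stood apart in markers of other cells: skeletal muscle markers summed to 370 to 477 TPM there against 145 to 179 in W1 and W2, and Schwann cell and melanocyte markers to 139 to 141 TPM against 24.1 to 26.8. Results of set 1 are also given by number group, a division chosen with earlier results of these data known.

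A ribosome holds 1 copy of nearly every ribosomal protein, so cells make these proteins in matched amounts and destroy the excess. In mammals much of that matching lies in translation: the mRNAs of ribosomal proteins and of elongation factors begin with a run of pyrimidines at the 5′ end, the terminal oligopyrimidine or TOP element, through which the kinase mTOR and the RNA-binding protein LARP1 adjust their translation to nutrients and growth signals. Fibroblasts in culture divide and secrete matrix, and ribosomal protein mRNAs are among the most abundant in such cells.

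The stretches around the annotated start sites are printed for 6 members on which the results below turn, to show where pyrimidine runs lie. Each stretch runs from 30 bases before to 20 bases after the start of transcription given by RefSeq (build GRCm38.p6), 5′ to 3′ on the strand of the gene, and the capitals mark the longest unbroken run of C and T, or the first of them where 2 are equally long. Rps10 (chr17:27635225-27635274, minus strand) and Rpl4 (chr9:64173357-64173406, plus strand) had among the smallest p values between the number groups of set 1. Rpl13a (chr7:45128726-45128775, minus strand) differed between these groups by genotype, and Rps9 (chr7:3704011-3704060, plus strand) differed between the sets. Rps27 (chr3:90213629-90213678, minus strand) and Rps27l (chr9:66946056-66946105, plus strand) are paralogs whose differences between the number groups had opposite signs. That of Rps27l was not called, and the 2 genes were not tested against each other.
Rps10: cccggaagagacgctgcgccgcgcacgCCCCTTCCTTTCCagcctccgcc
Rpl4: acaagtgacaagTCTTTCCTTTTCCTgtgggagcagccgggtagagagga
Rpl13a: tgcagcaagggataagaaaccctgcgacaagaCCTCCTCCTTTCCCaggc
Rps9: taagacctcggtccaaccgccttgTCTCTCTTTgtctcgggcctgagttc
Rps27: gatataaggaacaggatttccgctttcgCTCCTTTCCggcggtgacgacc
Rps27l: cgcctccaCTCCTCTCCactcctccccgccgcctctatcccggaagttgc

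In Rps10, Rps27 and Rps9 the run lies across the annotated start, in Rpl13a it begins 3 bases into the transcript, and in Rpl4 it begins 18 bases before the start and ends upstream of it. Rps27l has 2 runs of 9 bases, which begin 22 and 12 bases before the start and both end upstream of it. RefSeq windows of 300 bases (250 before to 50 after a start) were matched to 60 of the 80 members, 72 windows in all. A run of at least 8 C or T between 10 bases before and 50 after the start, read on the sense strand, was in 61.1% of the member windows, in 19.1% of the windows of the genes tested over both sets and in 21.2% of all windows. The letters CCGGAAG, a match to sites of ETS-family factors, were found on either strand in 36.1% of member windows against 17.8% of those of tested genes. CTTTCC, which can lie within a pyrimidine run, was in 50% against 26.3%, and AAGATGGC, a match to sites of the factor YY1, in 9.72% against 4.42%. TATAAA was in 8.33% of member windows against 6.87%. A match of letters is a description of the window and shows no binding.

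Of the 80 members, 78 reached 1 TPM in all 13 libraries and were tested, and 48 of the 100 genes with the highest mean TPM were members. The median member had a mean of 1741 TPM. Member transcripts are short, with a median length of 1076.5 bases for the longest transcript of a gene against 3430 for the genes tested. Rplp1, an acidic protein of the stalk that brings elongation factors to the ribosome, stood highest with a mean of 7948 TPM and values from 7139.8 to 9795. It was followed by Rps2, which lines the entry of the mRNA channel, at 5061 TPM, Rplp0, the base of the stalk, at 4023, Rpl23a, beside the exit of the peptide tunnel, at 3870.2, and Rpl41, the shortest of the ribosomal proteins, at 3801. Within a library the order of Rplp1, Rps2, Rplp0 and Rpl23a was the same in 13 of 13 libraries, although the ranges of Rps2 (4315 to 5598 TPM) and Rplp0 (3351 to 4576) over the libraries overlap. Rpl23a lay above Rpl41 in 9 of 13 libraries, so these have no firm order. The lowest of the tested members were Rpl39l at a mean of 62.7 TPM, Rps15a at 235 and Rpl22 at 409, and the ranges of these 3 did not overlap one another.

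Paralogs known from single tissues were low or at 0. Rpl3l, a paralog of Rpl3 known from striated muscle, was listed at 0 in 11 libraries and at 0.133 and 0.0606 TPM in W3 and W4, beside 1491 to 2000.4 TPM for Rpl3. It was at 0 in M1 and M2 too, where the muscle markers were highest. Rpl10l, a retrogene known from the testis, was at 0 in all 13 libraries, and Rpl39l, also known from the testis, ran from 48.7 to 82.0 TPM beside 1220.4 to 1680.3 TPM for Rpl39, whose product lines the exit tunnel. Rps27l stood at 504 to 645 TPM beside 1552 to 2327 for Rps27. Rps4l was not analysed here.

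Together the 80 members took between 13.2% and 17.4% of the total TPM. In set 1 the share was 13.9% in W1, 14.5% in W2, 13.2% in M1 and 13.3% in M2, the earlier animals, and 15.1% in W3, 15.6% in W4, 16.0% in M3 and 17.4% in M4, the later ones. Every later library lay above every earlier one, and the G234D libraries lay below their WT counterparts among the earlier animals and above them among the later. In set 2 the share was 15.5% in W5, 16.3% in W6, 15.8% in M5, 15.1% in M6 and 14.6% in M7, so that M5 lay between the WT libraries and M6 and M7 below both. By genotype the means were 14.8% ± 0.73 in WT and 15.0% ± 2.05 in G234D libraries of the first set (SD, n = 4 each), and 15.9% ± 0.57 (SD, n = 2) and 15.2% ± 0.62 (SD, n = 3) in set 2, differences smaller than or close to the spread within a group. By animal number they were 13.7% ± 0.57 in the earlier and 16.0% ± 0.98 in the later animals (SD, n = 4 each). No test was made of this sum. The ratio of the large-subunit to the small-subunit sum lay between 1.40 and 1.43 in the 8 libraries of set 1 and between 1.44 and 1.47 in the 5 of set 2.

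**Figure D1:**
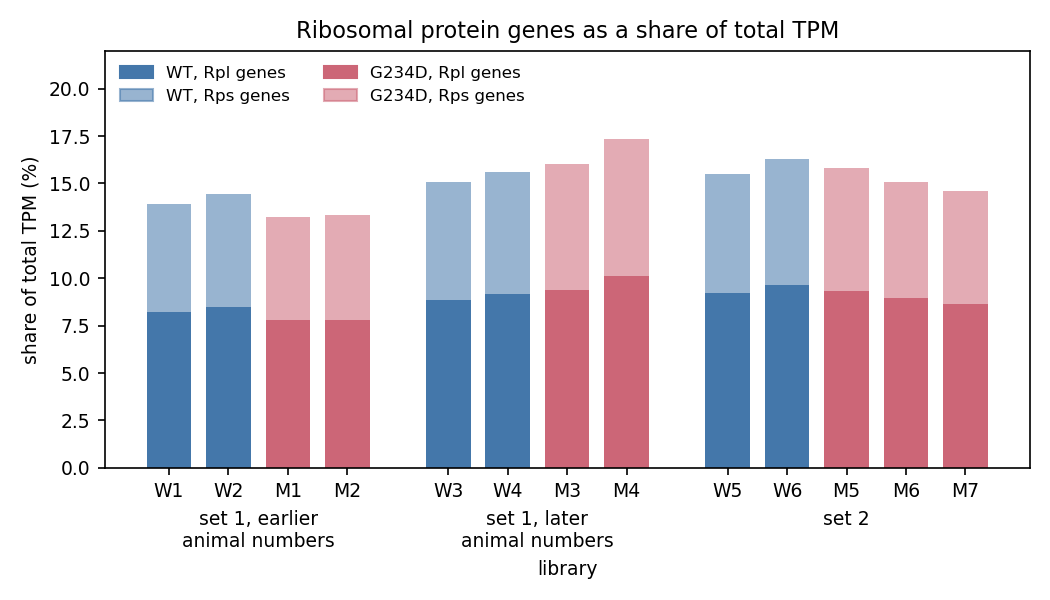
Share of total TPM (percent, vertical axis from 0) held by the large-subunit (Rpl, solid) and small-subunit (Rps, pale) genes in each of the 13 libraries, WT in blue and G234D in red. The 4 later animals of set 1 stand between 15.1% and 17.4%, above the 4 earlier animals at 13.2% to 14.5%.

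The members moved together. Each gene's log2(TPM + 1) was compared with its own mean over the 13 libraries, and the median of these deviations over the 78 members was −0.19 in M1, −0.17 in M2, −0.10 in W1 and −0.056 in W2. It was 0.00060 in W3, 0.058 in W4, 0.096 in M3 and 0.20 in M4, a range over set 1 from 1.14-fold below to 1.15-fold above the mean level. In M2, 76 of 78 members lay below their mean and in M4 78 of 78 lay above it. In set 2 the medians were 0.035 in W5, 0.11 in W6, 0.072 in M5, −0.0031 in M6 and −0.042 in M7. The median profile of the members held 88.7% of the sum of their squared deviations in set 1, 65.7% in set 2 and 62.5% over both. The same figure in set 1 was 70.1% for 22 elongation factors and other TOP genes, 22.2% for 46 genes of ribosome biogenesis and 11.3% for 78 mitochondrial ribosomal protein genes. These lists differ in size and in level, and the members share libraries and the scaling of TPM, so the figures are descriptions. Each member's profile was also correlated with the median of the other members over the 13 libraries, and the median r was 0.92, with 43 members above 0.9 and 65 above 0.8. For 2 members it was negative, Rps27l at −0.54 and Rpl10 at −0.071.

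**Figure D2:**
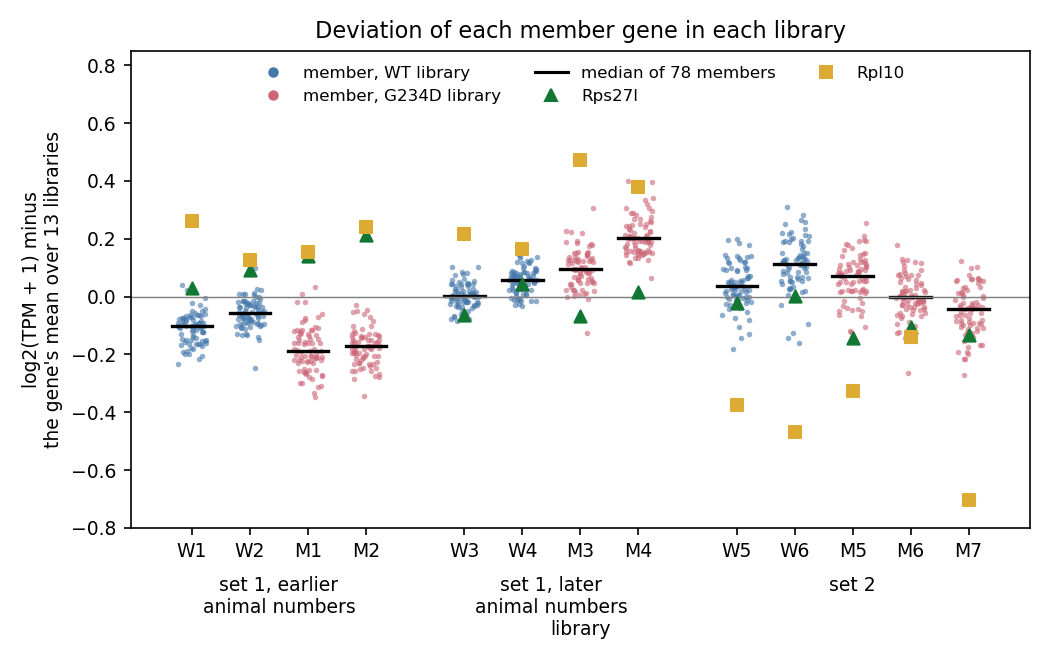
Deviation of log2(TPM + 1) from each gene's mean over 13 libraries (vertical axis, log2) for the 78 member genes in each library; points are genes, black lines the median of the members, green triangles Rps27l and yellow squares Rpl10. The medians run from −0.19 in M1 to 0.20 in M4, and Rps27l lies above the median of the members in M1 and below it in M4.

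The study's main question is the difference between genotypes, and there no member was called. Differences are G234D minus WT on the log2(TPM + 1) scale, from the moderated linear model of limma fitted to all genes that passed the filter, and a call is a Benjamini-Hochberg adjusted p under 0.05. Over both sets 0 of 78 members were called, where 0% of the 11942 genes tested were called, and 0 members had an unadjusted p under 0.05. The median member difference was −0.017 against 0.011 for all genes, 61 of 78 members were negative, and the values ran from −0.067 to 0.093. Rps27, a zinc-finger protein of the small subunit, had the smallest p of the members with a higher value. In set 1 its WT libraries averaged 1794 ± 93.4 TPM and its G234D libraries 1978 ± 324 (SD, n = 4 each), and in set 2 the averages were 1574 ± 31.2 (SD, n = 2) and 1613 ± 41.3 TPM (SD, n = 3). The groups of set 1 overlap, and the log2 difference over both sets was 0.093 (SE 0.072, adjusted p = 0.904). On the lower side Rpl24, which forms a bridge to the small subunit, differed by −0.056 (SE 0.050, adjusted p = 0.916), and Rps2 by −0.063 (SE 0.060, adjusted p = 0.917). The median SE of the members was 0.065, and the 95% interval of Rps2 ran from −0.19 to 0.066. The value of Rps2 was 0.0090 without M1 and M2, and that of Rpl10 went from 0.086 to −0.037 when a near-identical copy described below was added to it.

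Within set 1, 0 of 78 members were called (0% of 11905 genes), 0 had an unadjusted p under 0.05, and 52 of 78 were positive with a median of 0.019. For 0 of 78 members did the genotypes separate without overlap, as 1.96% of genes did with G234D above and 2.19% with G234D below. Without M1 and M2 the median was 0.18, again with 0 called. Within set 2, 0 of 78 were called where 0.00829% of 12060 genes were, 7 had an unadjusted p under 0.05 (8.97% of members, 6.48% of genes), and 76 of 78 were negative with a median of −0.065 against 0.030 for all genes. The smallest p there was that of Rps20, a protein of the head of the small subunit. Rps20 stood at 647 and 709 TPM in W5 and W6 and at 615, 602 and 613 TPM in M5, M6 and M7. The G234D libraries lay below both WT libraries, and the difference was −0.15 (SE 0.052, adjusted p = 0.741). Of the 78 members, 23 had all 3 G234D libraries below both WT libraries, as 7.02% of all genes did, and 0 had them above, as 16.6% did. The difference between the sets, tested as an interaction, was called for 0 of 78 members (0% of 11942 genes), 0 of them at an unadjusted p under 0.05, with a median of −0.085 and a lowest adjusted p of 0.873.

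Between the number groups of set 1 more members were called than for genotype, all of them in 1 direction. With genotype in the model, later minus earlier animals, 41 of 78 members were higher and 0 lower, where 2.79% of 11905 genes were called higher, 4.35% lower and 7.14% in either direction. The median member difference was 0.22, a 1.17-fold value, against −0.022 for all genes, and 77 of 78 members were positive. An unadjusted limma p under 0.05 was reached by 76 members (97.4%), where 26.7% of all genes reached it. All 4 later libraries lay above all 4 earlier ones for 69 of 78 members, as they did for 5.7% of all genes, and below them for 0, against 9.77%. The adjusted p values of the called members lay close to the threshold, with a lowest value of 0.0275, and the number called rested on each of several libraries. It was 0 without W1, M1, M2 or M3, 1 without M4, 7 without W4, 26 without W3 and 47 without W2, while the median stayed between 0.18 and 0.25. It was also 0 with no filter on low TPM and 14 with quantile normalization. Of all genes called, 332 of 850 were higher (39.1%), and with scaling by the median of ratios 419 of 822 were (51.0%).

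Rps10, in the head of the small subunit, had the smallest p among the members. It stood at 782 TPM in W1, 816 in W2, 762 in M1 and 773 in M2, and at 889 in W3, 902 in W4, 929.9 in M3 and 1009.7 in M4. The 2 groups did not overlap, and the difference was 0.25 (SE 0.050, adjusted p = 0.0275). Rpl4, whose loop reaches into the peptide tunnel, had values of 2235 to 2446 TPM in the earlier and 2656 to 2928 in the later animals. These did not overlap either, and the difference was 0.24 (SE 0.054, adjusted p = 0.0326). Rpl9, near the base of the stalk, ran from 507 to 584 TPM and from 628 to 730.2 TPM, a difference of 0.28 (SE 0.062, adjusted p = 0.0325), again without overlap.

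Of the stalk proteins, Rplp0 was called and Rplp1 and Rplp2 were not. Rplp0 stood at 3567, 3652, 3351 and 3412 TPM in W1, W2, M1 and M2 and at 3911, 3956, 4023 and 4466 TPM in W3, W4, M3 and M4. The later libraries lay above the earlier ones, and the difference was 0.22 (SE 0.058, adjusted p = 0.0496). Rplp1 differed by 0.23 (SE 0.066, adjusted p = 0.0629) and Rplp2 by 0.21 (SE 0.055, adjusted p = 0.0537), sizes like that of Rplp0. The proteins of the 5S particle, Rpl5 and Rpl11, which bind the ubiquitin ligase Mdm2 when ribosome assembly fails, were both called. Rpl5 differed by 0.25 (SE 0.060, adjusted p = 0.0409) and Rpl11 by 0.20 (SE 0.049, adjusted p = 0.0448). Rps19, the small-subunit protein most often mutated in Diamond-Blackfan anemia, differed by 0.23 (SE 0.056, adjusted p = 0.0448). Rps4x, the X-linked form of a small-subunit protein, differed by 0.28 (SE 0.061, adjusted p = 0.0326). Rpsa, near the mRNA exit, differed by 0.21 (SE 0.062, adjusted p = 0.0687) and Rps27a, which is made as a fusion with ubiquitin, by 0.15 (SE 0.051, adjusted p = 0.0987), and neither was called.

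Genotype differences within the 2 number groups ran in opposite directions. Among the earlier animals 76 of 78 members were negative, with a median of −0.094, and both G234D libraries lay below both WT libraries for 68 of 78 members, as they did for 30.4% of all genes. Among the later animals 76 of 78 were positive, with a median of 0.12, and both G234D libraries lay above both WT libraries for 64 of 78, as for 21.5% of all genes, and below them for 0, against 18.4%. Called were 0 of 78 members among the earlier animals (21 at an unadjusted p under 0.05, 26.9% of members against 21.6% of all genes), where 3.92% of genes were called (2.42% higher, 1.5% lower), and 0 of 78 among the later (38 at an unadjusted p under 0.05, 48.7% against 12.4%), where 0.269% were (0.0924% higher, 0.176% lower). The difference between these differences, tested as an interaction of number group and genotype, had a median of 0.22 against 0.018 for all genes and was called for 2 of 78 members, both higher, where 0.932% of genes were called higher, 1.87% lower and 2.81% in either direction.

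The 2 were Rpl39 and Rpl13a, a large-subunit protein that also takes part in the control of inflammatory mRNAs. Rpl39 stood at 1255 and 1283 TPM in W1 and W2 and at 1253 and 1220.4 TPM in M1 and M2. Among the later animals it stood at 1333 and 1345 TPM in W3 and W4 and at 1591 and 1680.3 TPM in M3 and M4. The first 4 values lie close together, and M3 and M4 lie above all the others. The interaction was 0.33 (SE 0.067, adjusted p = 0.0390), with genotype differences of −0.038 and 0.29. Rpl13a stood at 3271 and 3386 TPM in W1 and W2 against 3025 and 3089 TPM in M1 and M2, and at 3386 and 3515 TPM in W3 and W4 against 3904 and 4135 TPM in M3 and M4. The G234D values were below WT in the first group and above it in the second, and the interaction was 0.34 (SE 0.071, adjusted p = 0.0390). Neither call held in every setting: 0 members were called with median-of-ratios scaling and 0 without a filter on low TPM, and the number called was 29 without M3, 1 without M4 and 0 without any of the other 6 libraries.

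**Figure D3:**
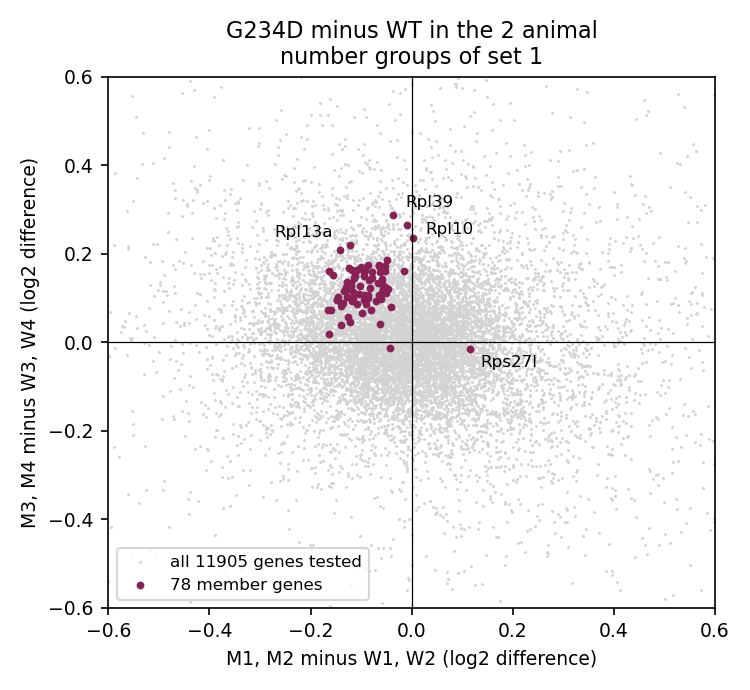
Genotype difference (G234D minus WT, log2) of each gene in the earlier animals of set 1 (horizontal axis) and in the later animals (vertical axis); grey points are the genes tested (those beyond 0.6 on an axis are not drawn), purple points the 78 members. Most members lie in the upper left quadrant, negative at a median of −0.094 among the earlier and positive at a median of 0.12 among the later animals, and Rps27l lies to the right of them.

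Other measures moved with the same libraries. Muscle markers (12 genes) summed to 370 and 477 TPM in M2 and M1, to 145 to 179 in W1 and W2, to 135 to 183 in W3 and W4, and to 74.1 to 124 in M3 and M4. Both M1 and M2 lay above both W1 and W2 for 12 of 12, as they did for 27.5% of all genes. The counts of higher markers that follow are of the same kind. Macrophage markers (10 genes) summed to 60.6 to 86.6 TPM in M1 and M2 against 15.7 to 36.7 in W1 and W2 and 16.4 to 21.4 in the later animals, with 10 of 10 higher. Schwann cell and melanocyte markers (10 genes) summed to 139 to 141 TPM against 24.1 to 26.8 and 30.8 to 49.5, with 6 of 10 higher. None of these markers was at 0 in all libraries. In set 2 the muscle markers summed to 109 to 166 TPM, the macrophage markers to 42.0 to 72.0 and the Schwann cell and melanocyte markers to 23.8 to 31.9. The macrophage sum of M5 (72.0 TPM) lay above that of M1 (60.6 TPM), while the members took 15.8% of total TPM in M5 and 13.2% in M1. The 13 mitochondrially encoded genes took 5.67% and 5.21% of total TPM in M1 and M2, 4.59% and 4.53% in W1 and W2, 4.70% and 4.57% in W3 and W4, and 4.50% and 3.89% in M3 and M4. Their part in the differences of the members was not tested. With the mitochondrially encoded genes left out of the total, the median member difference between the number groups was 0.21 and the interaction 0.20.

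Rps27l was the only member with a negative difference between the number groups. It is a near relative of Rps27 that is known as a target of the tumor suppressor p53. It stood at 567 TPM in W1, 594 in W2, 613 in M1 and 645 in M2, and at 532 in W3, 573 in W4, 531 in M3 and 563 in M4. It was highest in M1 and M2, where most members were lowest, and W4 overlapped with the earlier animals. The difference was −0.14 (SE 0.049, adjusted p = 0.114), which is not a call, and it was also the only member for which both M1 and M2 lay above both W1 and W2, against 27.5% of all genes. Rps27 itself stood at 1678 to 1728 TPM in the earlier and at 1863 to 2327 TPM in the later animals, a difference of 0.27 (SE 0.061, adjusted p = 0.0359). Among the earlier animals 2 of 17 regulators were called between genotypes, both higher, where 2.42% of genes were called higher: the cell cycle inhibitor Cdkn1a and Mdm2, which are also known as p53 targets. No list of p53 targets was tested. Cdkn1a stood at 511 and 485 TPM in M1 and M2 and at 330.0 and 345 TPM in W1 and W2, a called difference of 0.56 (SE 0.053, adjusted p = 0.000725). Mdm2 stood at 146 and 139 TPM against 106 and 102 TPM, a called difference of 0.45 (SE 0.062, adjusted p = 0.00555). Trp53, which encodes p53, had a difference of −0.11 (SE 0.047, adjusted p = 0.209) and was not called. In M3 and M4 Cdkn1a stood at 268 and 252 TPM and Mdm2 at 86.3 and 77.8 TPM, each below W3 and W4. The 3 genes did not run together in set 2. There Cdkn1a stood at 433 to 460 TPM over both genotypes, above the 302 to 345 TPM of W1 to W4. Mdm2 stood at 88.6 to 106 TPM in set 2. Set 2 minus set 1, the difference of Rps27l lay between −0.153 and −0.0999 with 1 library left out at a time. It was called in only 4 of the 25 settings run, and the main fit was not among them. Against the earlier animals it was −0.20 (limma adjusted p = 0.00457) and against the later animals −0.056 (adjusted p = 0.320).

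Between the sets the members went in both directions. With genotype in the model, set 2 minus set 1, 13 of 78 members were higher and 5 lower, with a median of 0.049. These are 23.1% of the members, where 39.3% of the 11942 genes were called, 17.5% higher and 21.8% lower. Set and every step of culture, library preparation and sequencing that differed with it cannot be told apart. The counts depended on which animals of set 1 entered: against the earlier animals 58 members were higher and 6 lower, with a median of 0.17, where 20.4% of genes were called higher and 27.3% lower. Against the later animals 1 was higher and 15 lower, with a median of −0.061, where 14.5% and 15.9% of genes were. Without M1 and M2, 4 were higher and 9 lower, with a median of −0.019, where 16% and 20% of genes were. The number called also fell to 7 without W6 and to 11 without M5, and it was 31 without M4.

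Some members differed whichever animals of set 1 were used. Rpl29, a heparin-binding protein of the large subunit, ran from 1101 to 1381 TPM in the 8 libraries of set 1 and from 1422 to 1517 TPM in the 5 of set 2. It was the only member with every library of set 2 above every library of set 1, as 6.82% of genes were, and its difference was 0.25 (SE 0.057, adjusted p = 0.00367), or 0.35 and 0.15 against the earlier and the later animals. Lower in every library of set 2 were 5 members, Rps29, Rps28, Rps27 and Rpl10 among them, against 10.4% of genes. Rps29, a small zinc-binding protein of the head, ran from 2477 to 3238 TPM in set 1 and from 2141 to 2453 TPM in set 2, a difference of −0.27 (SE 0.065, adjusted p = 0.00560). Rps28, at the mRNA exit, ran from 1841 to 2296 TPM and from 1656 to 1776 TPM, a difference of −0.22 (SE 0.054, adjusted p = 0.00589). Against the earlier and the later animals Rps29 differed by −0.17 and −0.36 and Rps28 by −0.13 and −0.31. Rpl29, Rps29 and Rps28 were called in the same direction in each of the 24 other settings run for them. Rpl13, a large-subunit protein, had a difference of 0.26 (SE 0.072, adjusted p = 0.0105) that fell to 0.14 (adjusted p = 0.0778) against the later animals, and Rps9, near the mRNA entry of the small subunit, went from 0.24 to 0.11 (adjusted p = 0.108).

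**Figure D4:**
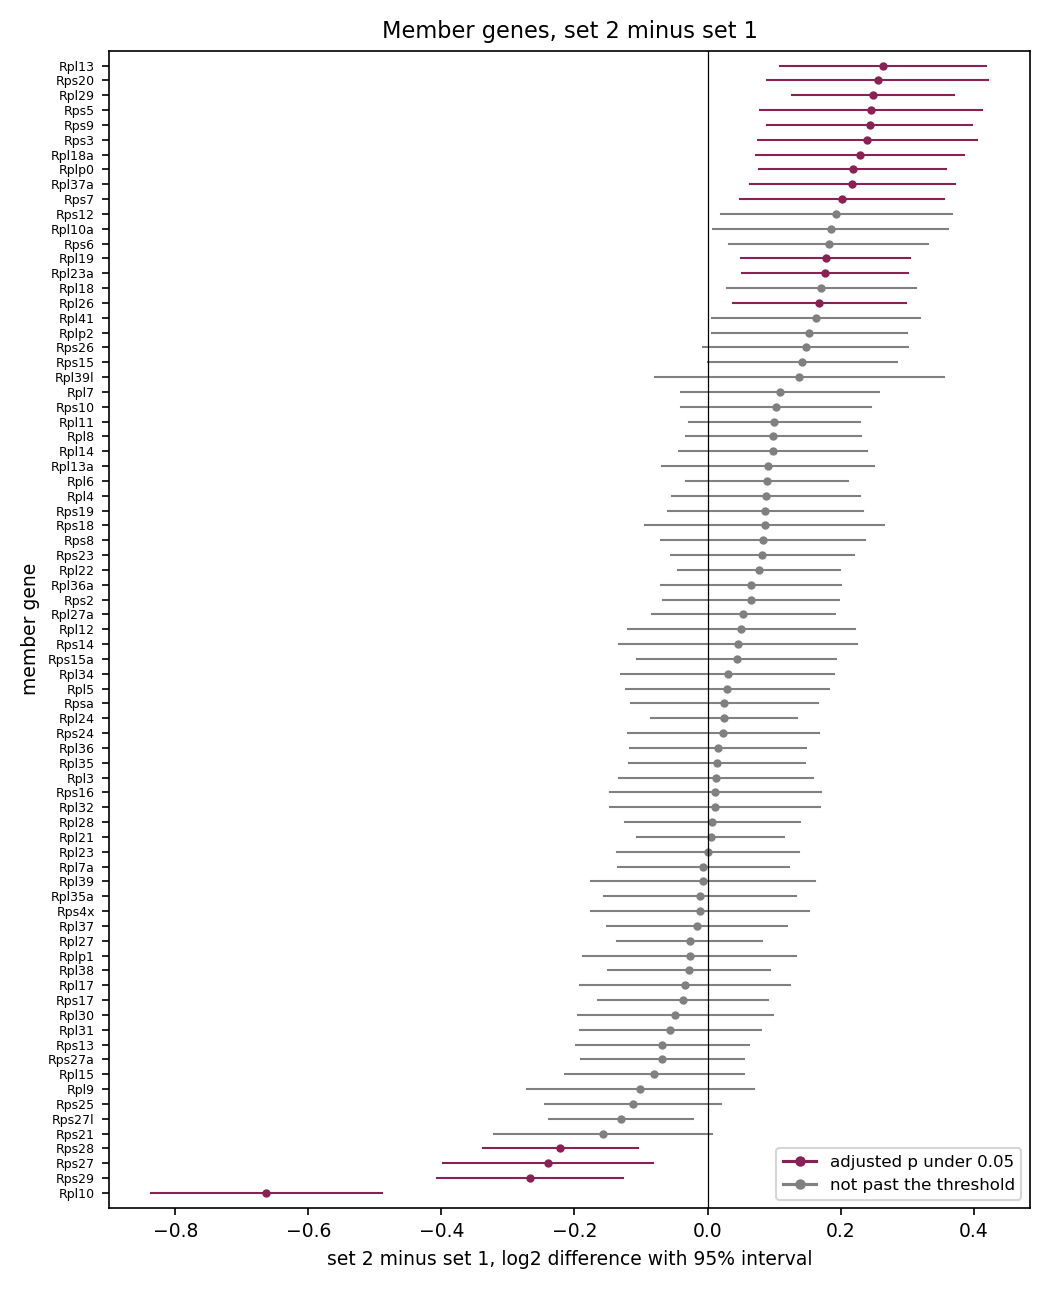
Difference between the sets (set 2 minus set 1, log2, horizontal axis) for 77 of the 78 tested members, ordered by size; points are limma estimates with genotype in the model, bars 95% intervals, and purple marks an adjusted p under 0.05. Members lie on both sides of 0, 13 of those drawn called higher and 4 lower, with Rpl10 lowest at −0.66.

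Rpl10 and Rps27 have near-identical copies in the tables, which changes how their values can be read. Rpl10 joins the large subunit last and is needed for it to become active. It stood at 878 to 1116 TPM in set 1 and at 620.2, 581, 641, 729.8 and 494 TPM in W5, W6, M5, M6 and M7, with no overlap, and its difference of −0.66 (SE 0.081, adjusted p = 6.4e-05), 1.58-fold lower in set 2, was the largest of the members. Rpl10-ps3 (ENSMUSG00000058443, build mm10, chr9:50344201-50344968, minus strand), a gene outside the rule, matched the whole coding part of an Rpl10 transcript at 100% identity and was listed at a mean of 2359 TPM, 285% of the level of Rpl10 itself (ENSMUSG00000008682, chrX:74270812-74273135, plus strand). Reads within such a stretch cannot be assigned to either from their sequence, and how the authors' counting split them is not given in the sources used here. Added up, both ran from 2837 to 3691 TPM in set 1 and from 3018 to 3198 TPM in set 2. The sums overlapped, and with the copies summed the difference of Rpl10 was −0.058 (adjusted p = 0.500).

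Rps27 showed the same kind of split on a smaller scale. Rps27rt (ENSMUSG00000050621, chr9:114982366-114982739, minus strand), likewise identical over the coding part, ran from 73.2 to 136 TPM in set 1 and from 162 to 384 TPM in set 2. The set 2 libraries all lay above those of set 1 for Rps27rt and below them for Rps27. The difference of Rps27 went from −0.24 (SE 0.074, adjusted p = 0.0198) to −0.12 (adjusted p = 0.223) when the copy was added. In all, 11 of the 80 members had a copy in the tables with at least 95% identity over at least 80% of the coding part, and 10 of the 13 copies reached a mean of 1 TPM. Besides Rpl10 only Rpl9 had a copy above 10% of its own level, Rpl9-ps6 with a mean of 92.9 TPM. The values of these members are uncertain to the extent that reads were divided between copies.

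**Figure D5:**
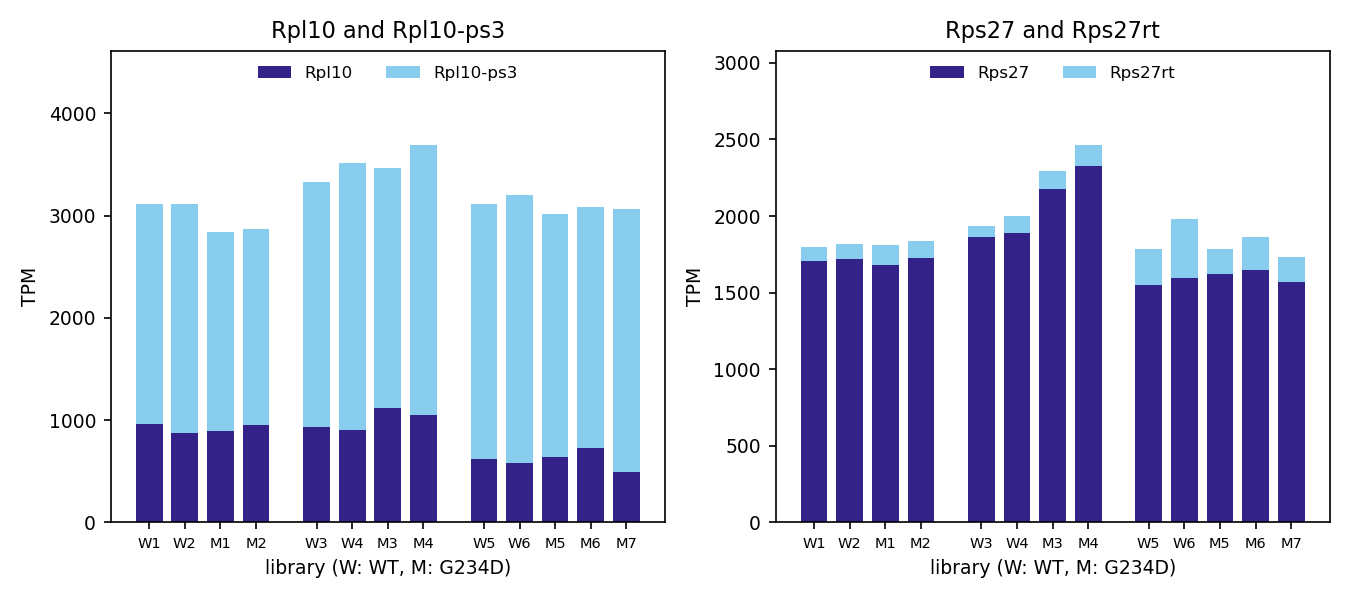
TPM (vertical axis from 0) of Rpl10 with Rpl10-ps3 stacked on it (left) and of Rps27 with Rps27rt (right) in each of the 13 libraries. Rpl10 alone is lower in the 5 libraries of set 2, at 494 to 729.8 TPM, while the sum with its copy overlaps between the sets.

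Ribosomal proteins that the symbol rule leaves out varied between the number groups. Rps3a1, a small-subunit protein whose symbol ends in a digit, differed by 0.22 (SE 0.054, adjusted p = 0.0451) and Fau, which encodes the small-subunit protein S30 as a fusion, by 0.20 (SE 0.051, adjusted p = 0.0486). Rack1, a scaffold on the small subunit, differed by 0.23 (SE 0.065, adjusted p = 0.0613), short of a call. Rpl36al, a paralog of Rpl36a, differed by −0.014 (SE 0.046, adjusted p = 0.869) and Rpl7l1, a paralog of Rpl7 that works in ribosome assembly, by 0.015 (SE 0.037, adjusted p = 0.831). The sign of Rpl36al turned in some settings. Rpl22l1, the paralog of Rpl22, had a larger difference than any tested member. It stood at 479, 506, 359 and 389.6 TPM in W1, W2, M1 and M2 and at 545, 584, 580.4 and 667 TPM in W3, W4, M3 and M4. The later values lay above the earlier ones with M1 and M2 lowest, and the difference was 0.46 (SE 0.11, adjusted p = 0.0435), with an interaction of 0.54 (SE 0.10, adjusted p = 0.0338). Rpl22l1 was called in 9 of the 17 settings run for the first value, with adjusted p up to 0.150, and in 10 of 17 for the interaction, with adjusted p up to 0.135. Rpl22 itself ran from 368 to 386 TPM in the earlier and from 392 to 456 TPM in the later animals.

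The rest of the pathway was read from lists chosen for function. Of 22 elongation factors and other TOP genes, 7 were higher in the later animals and 0 lower, where 2.79% and 4.35% of all genes were, with a median of 0.18: Eif4b at 0.24, Eif3f at 0.23, Eef2, the factor that moves the ribosome along the mRNA, at 0.25, Tpt1 at 0.22, Eif3h at 0.19, and Rps3a1 and Fau. Eef1a1, which brings aminoacyl-tRNA to the ribosome, just missed the threshold. It had 12058 to 13931 TPM in the earlier and 15089 to 17249 TPM in the later animals, without overlap, and a difference of 0.27 (SE 0.070, adjusted p = 0.0502). Of 46 genes of ribosome biogenesis, which make and process the ribosomal RNA, 0 were called (limma), with a median of −0.047. Among them 32 were negative and 10 had an unadjusted p under 0.05, where 26.7% of all genes did. Of 17 regulators 2 were higher, Myc, a transcription factor that drives ribosome production, at 0.24 (SE 0.046, adjusted p = 0.0272) and Maf1, a repressor of RNA polymerase III, at 0.19 (SE 0.048, adjusted p = 0.0451), and Mdm2 was lower at −0.50 (SE 0.11, adjusted p = 0.0356). Of 78 mitochondrial ribosomal protein genes 1 was higher and 2 were lower, with a median of 0.011.

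Between the sets the order was different. Of the 46 biogenesis genes 24 were lower and 3 higher in set 2, with a median of −0.13. Utp20, of the small-subunit processome, differed by −0.43 (SE 0.048, adjusted p = 4.21e-05), Ddx21, a nucleolar helicase, by −0.35 (SE 0.044, adjusted p = 8.33e-05) and Polr1a, the largest subunit of RNA polymerase I, by −0.36 (SE 0.054, adjusted p = 0.000223). The background for these counts is the 21.8% of all genes called lower in set 2 and the 17.5% called higher. Of the 22 TOP genes 4 were higher and 3 lower, and of the 78 mitochondrial ribosomal protein genes 12 were higher and 12 lower. These counts are near or below the shares of all genes.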

How the data were processed

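Per the file headers, the tables deposited by the authors hold a TPM value for each gene and library (reads scaled by gene length and library total), and the TPM of a library sum to 1000000 over 25655 genes. RNA was column-purified and made into stranded libraries, per the labels' protocols, and the build was mm10, per the submitters' processing notes. Which aligner, counter and gene models were used is not given in the sources used here. Gene coordinates were those of GENCODE release M21, which 25600 identifiers and all 80 members matched. TPM keep no read totals, so no counting interval could be given.

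Differences were tested on log2(TPM + 1) with limma 3.58.1 in R 4.3.3 (mean-variance trend, robust empirical Bayes), with Benjamini-Hochberg adjustment over all genes that reached 1 TPM in 6 or more libraries (both sets), 4 (set 1) or 2 (set 2). The models were tested on simulated data. Alternatives were a pseudocount of 0.1, no filter or one of 10 TPM, median-of-ratios scaling, quantile normalization, no robust step, mitochondrially encoded genes left out, the replicate block, and libraries left out. Genotype was fitted over both sets with set as covariate, within each set, and with interactions; the set and number group models held genotype as covariate. The pseudocount of 1 understates differences of low genes, which few members are. Near-identical copies were sought with blastn 2.17.0 among annotated transcripts. Sums over members and correlations were described without a test. P values measure the spread between cultures, which the design text describes as taken from separate mice.

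The members, the gene lists, the number groups and the rule for named genes were chosen with earlier results of these data known. That rule named the stalk proteins, Rpsa, Rps27a, Rpl5, Rpl11, Rps19, paralogs, the ribosomal proteins outside the symbol rule, the members highest and lowest in mean TPM, those with the smallest p in each comparison, those farthest from their library's median, and members whose calls changed with the settings. Cdkn1a, Mdm2, and the other list genes named were chosen among called genes after their values were seen, and Eef1a1 and Trp53, which were not called, were chosen then too. Some genes that the rule names are not reported here.

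To check pairing, the deviations of each library from its group mean were correlated over genes between WT and G234D libraries with the same number in the labels. In set 1 r was 0.314, 0.236, 0.244 and 0.214, all over the limit of 0.1; the highest values were those of W1 with M2 (0.397) and W3 with M4 (0.440), which share a number group and not a number. In set 2 r was −0.155 and 0.0138. No label says that the numbers mark a litter or day.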

Additional observations from a re-analysis of the deposited data

Results flagged for a closer look

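The genotype difference of 2 members differed between the number groups of set 1 by the interaction test: Rpl13a by 0.34 and Rpl39 by 0.33 on the log2 scale. The share of total TPM in the 80 members was lower in G234D than in WT libraries among the earlier animals, by −0.908 percentage points, and higher among the later animals, by 1.37 percentage points, with both G234D libraries on 1 side of both WT libraries in each case. This difference between the groups was not tested. In the 70 groups of 4 libraries examined for the genes named, 0 had a library that stood apart from the other 3 beyond Dixon's 95% value. Each group held 2 earlier and 2 later animals, which differed for most members, so 1 outlying library is hard to flag. The genes also share libraries, so the usual rate of about 1 in 20 does not apply and the count of 0 says little.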

How the results depend on the processing

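For the genotype comparisons 0 members were called under each alternative run for both sets, for each set and for their interaction. With the replicate block 0 members were called for genotype, whether across the sets or in either of them, with medians of −0.0051, 0.019 and −0.037. Over all genes 0, 1 and 21 were called. M7 has no WT library of its number, so the block takes it out of the comparison. The medians over both sets and in set 2 are those of the fits without M7. These 2 fits cannot show what pairing does with M7 included. In set 1 the block changed no call of a member. Without both M1 and M2 (for each comparison except genotype over both sets, an alternative added after seeing the data) the median over both sets was 0.060, the set 1 median was 0.18 and that of the set by genotype interaction −0.25, with 0 members called in each, while set 2 minus set 1 had 13 called, 4 higher and 9 lower, with a median of −0.019. The cause was not tested.

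Later minus earlier, 0 members were called with no filter, which added genes to the adjustment, and 14 with quantile normalization (median 0.15). The number group by genotype interaction was called for 0 members with no filter, 0 with median-of-ratios scaling, 4 with quantile normalization (median 0.18) and 1 without the robust step. Set 2 minus set 1 gave 64 calls and a median of 0.17 with the later animals left out, an alternative added after seeing the data, as were the earlier animals left out and the copies summed. Rpl36al (later minus earlier) was 0.014 with median-of-ratios scaling, 0.011 with quantile normalization, and 0.014 without M1 and without M3. Over both sets Rpl10 was −0.037 with copies summed and Rps2 0.0090 without M1 and M2.

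Leaving out 1 library at a time gave these ranges. Calls ran from 0 to 47 and medians from 0.18 to 0.25 for later minus earlier, from 0 to 29 and from 0.17 to 0.28 for the number group interaction, and from 7 to 31 and from 0.016 to 0.094 for set 2 minus set 1. Medians by genotype ran from −0.062 to 0.011 over both sets, from −0.058 to 0.072 in set 1, from −0.11 to −0.027 in set 2 and from −0.14 to −0.0093 for the set by genotype interaction. Shares, in percentage points, ran from −0.559 to 0.814 by genotype in set 1, from −1.12 to −0.319 in set 2, from 1.84 to 2.60 later minus earlier and from 0.345 to 0.933 for set 2 minus set 1. Later minus earlier, Rpl36al ran from −0.041 to 0.014.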

Other observations

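The mitochondrially encoded genes ran opposite to the members in the G234D libraries of set 1. Their 13 transcripts are made by the mitochondrial polymerase and translated on mitochondrial ribosomes. Their share of total TPM was 5.67% and 5.21% in M1 and M2 against 4.50% and 3.89% in M3 and M4. Among WT libraries it changed little, from 4.59% and 4.53% in W1 and W2 to 4.70% and 4.57% in W3 and W4. Later minus earlier, 13 of 13 were negative with a median of −0.18. By limma 0 were called and 3 had an unadjusted p under 0.05, where 26.7% of all genes did. Among the earlier animals 13 of 13 differences between G234D and WT were positive, with a median of 0.27 and 1 call (2.42% of all genes were called higher), and among the later animals 11 of 13 were negative, with a median of −0.17. The interaction was called for 4 of 13, all negative, where 1.87% of genes were called lower. Of 100 nuclear genes of the respiratory chain tested, 2 were higher and 0 lower in the later animals, with a median of −0.010. Of all genes, 2.79% were called higher and 4.35% lower there.

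The kinases of ribosomal protein S6 share part of their symbol with the members and no part of the ribosome. Of 8 tested, 0 were called between the number groups by limma (median −0.027). An unadjusted p under 0.05 was reached by 2, where 26.7% of all genes reached it. In set 2, 1 was higher and 3 were lower, where 17.5% and 21.8% of all genes were. Of the 17 regulators 2 were higher and 5 lower in set 2, a share close to the 39.3% of all genes called. Larp4, an mRNA-binding protein, was lower by −0.40 (SE 0.043, adjusted p = 3.04e-05) and Mtor, the kinase that sets TOP translation, by −0.29 (SE 0.061, adjusted p = 0.00257), while Rps6kb2, an S6 kinase, was higher by 0.29 (SE 0.063, adjusted p = 0.00286).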
